A study of Mus musculus with 8 samples.

Results

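The genes described are 10 markers of hepatic stellate cells and pericytes: Lrat, Reln, Ecm1, Dcn, Hgf, Pdgfra, Pdgfrb, Acta2, Des and Rgs5. They were taken by name as genes of the quiescent and the activated stellate cell. All 10 were measured, each by 1 probe set that carried no other gene symbol, among 19937 genes in all. Affymetrix mouse gene arrays were used for total RNA of 4 normal mouse livers and 4 mouse liver tumours, each sample on an array of its own. The tumours were driven by human c-MYC, expressed in the liver through the CEBPB-LAP promoter under doxycycline control, and were taken at the humane endpoint. The control livers came from matched mice, and whether these carried the transgene or received doxycycline is not given in the sources used here. Strain, sex and age are not given either. Values are log2 expression per probe set, errors of means are SD of 4 arrays, and changes are tumours minus controls with the SE from limma. A gene was called where its p-value was at most 0.05 after Benjamini-Hochberg adjustment across the 19937 genes. Nothing in the labels says that the samples of a group came from separate mice, so the p-values rest on the spread among the samples alone, which may be technical.

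Hepatic stellate cells are the pericytes of the liver sinusoid. In the quiescent state they store vitamin A as retinyl esters, which the enzyme encoded by Lrat makes, and they secrete growth factors and matrix proteins. In injured liver they lose their retinoid stores, respond to PDGF and TGF-beta, and become contractile myofibroblasts that contain smooth muscle actin. The LAP promoter is known for its activity in hepatocytes, a cell type other than the stellate cell.

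In the tumours 5 of the 10 genes were lower, all of them genes of secreted proteins or of retinoid storage. Hgf fell 4.46-fold, Reln 3.17-fold, Lrat 3.12-fold, Dcn 2.75-fold and Ecm1 2.68-fold. Of all genes tested, 12.7% were called lower, and 16.2% were called higher. None of the 10 was called higher with the adjusted p in limma, and 1, Acta2, was higher at an unadjusted p under 0.05. The genes of the PDGF receptors, the cytoskeleton and the pericyte regulator Rgs5 were not called in either direction. For Lrat, Reln, Ecm1 and Hgf every tumour lay below every control, which was the case for 13.9% of all genes. The median change over the 10 genes was -0.96, against -0.04 over all genes. The arrays measure a piece of tissue, and fewer stellate cells cannot be told apart from less RNA per stellate cell.

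The upstream sequences of the genes whose groups did not overlap, Lrat, Reln, Ecm1 and Hgf, are shown. They are the 250 bases before the annotated start of each gene, read 5′ to 3′ on the gene's strand, from RefSeq on build GRCm38.p6. The RefSeq table held 8 of the 10 genes, and Dcn and Pdgfrb were not matched. Capitals mark GGGCGG (the GC box) and CACGTG (the E-box that MYC and MAX bind), found on either strand, and TATAAA (the TATA box). Lrat lies at chr3:82903975-82904224 on the minus strand, Reln at chr5:22344706-22344955 on the minus strand and Ecm1 at chr3:95739570-95739819 on the minus strand. Hgf has 2 annotated starts on the plus strand, with windows at chr5:16553245-16553494 and chr5:16553651-16553900.
Lrat: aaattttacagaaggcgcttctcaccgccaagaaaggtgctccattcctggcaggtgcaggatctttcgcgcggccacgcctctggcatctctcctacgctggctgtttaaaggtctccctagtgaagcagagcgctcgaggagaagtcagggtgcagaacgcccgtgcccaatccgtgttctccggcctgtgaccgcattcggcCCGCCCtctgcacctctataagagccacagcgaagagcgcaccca
Reln: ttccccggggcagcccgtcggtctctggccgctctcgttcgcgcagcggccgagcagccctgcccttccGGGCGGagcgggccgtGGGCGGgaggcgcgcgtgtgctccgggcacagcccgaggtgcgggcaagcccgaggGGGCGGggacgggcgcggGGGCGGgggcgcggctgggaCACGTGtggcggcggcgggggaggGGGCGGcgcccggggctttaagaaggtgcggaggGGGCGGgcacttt
Ecm1: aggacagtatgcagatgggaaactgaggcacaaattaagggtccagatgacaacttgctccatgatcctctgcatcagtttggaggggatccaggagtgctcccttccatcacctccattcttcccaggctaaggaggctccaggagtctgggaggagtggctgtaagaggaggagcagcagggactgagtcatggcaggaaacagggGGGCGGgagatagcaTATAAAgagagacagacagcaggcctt
Hgf, start 1: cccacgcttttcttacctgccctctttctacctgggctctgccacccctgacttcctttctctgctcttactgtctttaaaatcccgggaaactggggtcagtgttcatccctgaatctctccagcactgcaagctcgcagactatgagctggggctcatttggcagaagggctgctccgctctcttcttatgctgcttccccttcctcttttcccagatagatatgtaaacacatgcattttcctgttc
Hgf, start 2: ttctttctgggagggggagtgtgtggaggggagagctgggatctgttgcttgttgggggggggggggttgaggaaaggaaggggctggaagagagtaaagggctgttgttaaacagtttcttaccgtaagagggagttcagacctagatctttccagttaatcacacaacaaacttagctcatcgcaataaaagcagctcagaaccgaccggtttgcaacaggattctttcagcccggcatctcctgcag

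The 5 windows differed in base composition. Reln's window was 80.0% G and C, with 6 GC boxes and 1 CACGTG, and the other windows ranged from 50.8% to 59.2%, against a median of 52.4% over 32851 windows of all genes. The GC box stood in the windows of Lrat, Reln and Ecm1 and in 32.7% of all windows, and the CACGTG letters in that of Reln alone and in 6.02% of all windows. TATAAA was found at bases -27 to -22 before the start of Ecm1, and in 12.4% of all windows. The shorter motifs CANNTG (any E-box, which includes CACGTG) and CAGAC (SMAD), searched on both strands, stood in 66.2% and 42.2% of all windows and were not marked. CANNTG was in the windows of Lrat, Reln, Ecm1 and the first start of Hgf, and CAGAC in that of Ecm1 and both of Hgf. These are matches of letters and describe the windows only.

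**Figure D1:**
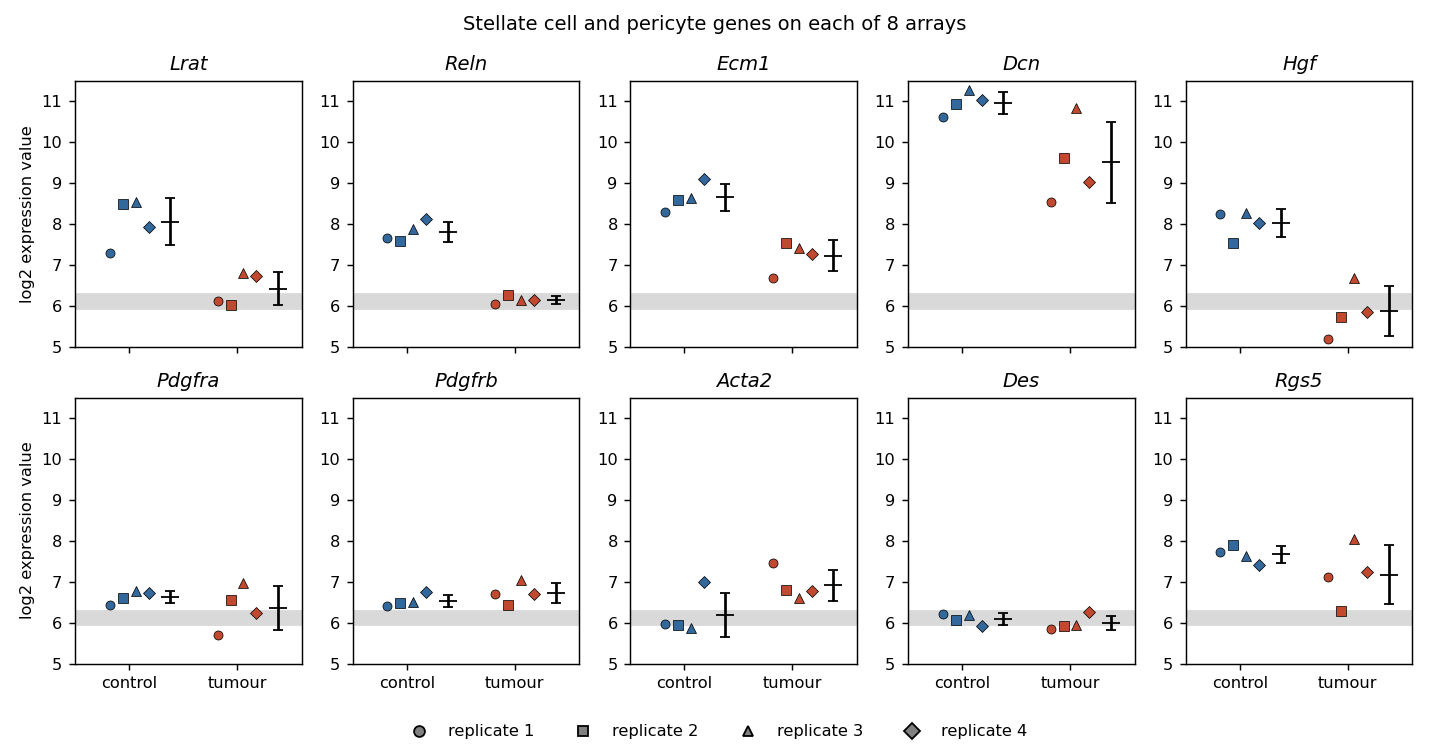
Log2 expression of the 10 genes on each of the 8 arrays (y axis, the same scale in every panel), with control livers in blue and tumours in red. The black mark and bar at the right of each group give the mean ± SD of 4 arrays. The grey band, 5.94 to 6.29, spans over arrays the 95th percentile of olfactory and vomeronasal receptor genes. The tumours lay below the controls without overlap for Lrat, Reln, Ecm1 and Hgf, and for Reln they spanned 0.23, within the grey band.

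Lrat encodes lecithin retinol acyltransferase, which esterifies vitamin A for storage in stellate cells. It read 7.30, 8.499, 8.53 and 7.93 in control livers 1 to 4, and 6.13, 6.02, 6.80 and 6.74 in tumours 1 to 4. Control liver 1 was the lowest control, and it still lay above every tumour. Tumour 2 was under the low signal percentile of its array, which is described with Reln. The group means were 8.06 ± 0.58 and 6.42 ± 0.40 (SD, n = 4 and 4), a change of -1.64 (SE 0.28, adjusted p = 0.00128 in limma).

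Reln encodes reelin, a large secreted glycoprotein best known from neuronal migration, which stellate cells make in the liver. The controls read 7.66, 7.59, 7.88 and 8.14, and the tumours 6.04, 6.28, 6.15 and 6.14. The tumours were close to each other, within a range of 0.23. The means were 7.82 ± 0.25 and 6.15 ± 0.10 (SD, n = 4 and 4), and the change was -1.66 (SE 0.13, adjusted p = 5.1e-06 in limma), the smallest p of the 10 genes. As a guide to low signal, the 95th percentile of 1194 olfactory and vomeronasal receptor genes, which are not known for liver expression, lay between 5.94 and 6.29 over the 8 arrays. A mean or value at or under the upper of these values is called within the low signal range. By the percentile of its own array, only tumour 4 was under for Reln. The tumour mean of Reln was under the upper value, so its fold is a limit rather than an exact size. The spread among its tumours may likewise be understated.

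Ecm1 encodes extracellular matrix protein 1, a secreted glycoprotein known to keep latent TGF-beta inactive in the liver. It read 8.30, 8.59, 8.64 and 9.11 in the controls and 6.70, 7.55, 7.42 and 7.27 in the tumours. Tumour 1 was the lowest, and the highest tumour was 0.75 below the lowest control. The means were 8.66 ± 0.33 and 7.23 ± 0.38 (SD, n = 4 and 4), a change of -1.42 (SE 0.21, adjusted p = 0.000435 in limma).

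Dcn encodes decorin, a small proteoglycan that binds collagen fibrils and TGF-beta. The controls read 10.63, 10.95, 11.27 and 11.04, and the tumours 8.54, 9.63, 10.85 and 9.03. Tumour 3 lay within the controls' range and the other 3 tumours lay below it, so the groups overlapped. The tumours spread over 2.30, the controls over 0.64. The means were 10.97 ± 0.27 and 9.51 ± 0.99 (SD, n = 4 and 4), and the change was -1.46 (SE 0.40, adjusted p = 0.0195 in limma). This call was lost without tumour 4 (adjusted p = 0.0578 in limma) and with array weights (-1.13, adjusted p = 0.0963 in limma), and without tumour 3 the change was -1.91 (adjusted p = 0.000367 in limma).

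Hgf encodes hepatocyte growth factor, the ligand of the receptor MET, which stellate cells and endothelial cells supply to hepatocytes. It read 8.25, 7.55, 8.28 and 8.04 in the controls and 5.21, 5.74, 6.68 and 5.86 in the tumours. All tumours lay below the controls, with tumour 3 the highest and tumour 1 the lowest. The means were 8.03 ± 0.33 and 5.87 ± 0.61 (SD, n = 4 and 4), a change of -2.16 (SE 0.28, adjusted p = 0.000182 in limma). In 3 of the 4 tumours Hgf was at or under the low signal percentile of that array, so its fold is also a limit.

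Pdgfra and Pdgfrb encode the receptors for platelet-derived growth factor, which drive growth and migration of activated stellate cells. Pdgfra read 6.43, 6.60, 6.77 and 6.73 in the controls and 5.70, 6.56, 6.97 and 6.23 in the tumours. Its tumours lay on both sides of the controls, 2 below and 1 above all of them, those 2 at or under the low signal percentile, and the change was -0.27 (SE 0.23, 95% interval -0.77 to 0.24, adjusted p = 0.455 in limma). Pdgfrb read 6.40, 6.48, 6.51 and 6.74 in the controls and 6.70, 6.43, 7.04 and 6.70 in the tumours. Only tumour 3 lay above all controls, and the change was 0.18 (SE 0.14, 95% interval -0.12 to 0.48, adjusted p = 0.373 in limma). The interval of Pdgfrb leaves out a 2-fold change, a log2 change of 1, in either direction. Its group means (6.53 and 6.72) were close above the low signal range, so its change may be understated. The interval therefore bounds the array value only. The interval of Pdgfra leaves out a 2-fold change too, but with 2 tumours at low signal it cannot exclude a 2-fold fall. The change of Pdgfra was lower than that of Pdgfrb by 0.45, which a two-sided exact permutation test over the 8 arrays did not call (p = 0.143, adjusted p = 0.143 over 3 pairs of genes). Without tumour 2 the difference was -0.61 (p = 0.0286, adjusted p = 0.0429 in the same exact permutation test), and without tumour 1 it was -0.23 (adjusted p = 0.229).

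Acta2 encodes smooth muscle alpha actin, the marker of myofibroblasts and of vascular smooth muscle. It read 5.95, 5.94, 5.87 and 7.001 in the controls and 7.46, 6.79, 6.61 and 6.78 in the tumours. Control liver 4 was higher than 3 of the tumours, while the other 3 controls were below every tumour and at or under the low signal percentile of their arrays. The means were 6.19 ± 0.54 and 6.91 ± 0.38 (SD, n = 4 and 4). The change was 0.72 (SE 0.26, 95% interval 0.13 to 1.31 without adjustment, adjusted p = 0.0673 in limma). Without control liver 4 it was 0.99 and was called (adjusted p = 0.00318 in limma).

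Des encodes desmin, the intermediate filament of muscle cells that also marks stellate cells of rodents. Its values were 6.22, 6.07, 6.17 and 5.91 in the controls and 5.83, 5.92, 5.95 and 6.25 in the tumours. On every array it was at or under the low signal percentile, so the probe set is not shown to measure Des here. The change was -0.10 (SE 0.12, 95% interval -0.36 to 0.16, adjusted p = 0.593 in limma). Acta2 minus Des was 1 of the 3 pairs, and nothing is read from it, because the level of Des was not shown to be measured.

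Rgs5 encodes a regulator of G protein signalling that marks pericytes of many organs. The controls read 7.73, 7.89, 7.64 and 7.41, and the tumours 7.11, 6.29, 8.04 and 7.24. Tumour 3 lay above every control and the other 3 tumours lay below every control. The change was -0.50 (SE 0.30, 95% interval -1.16 to 0.16, adjusted p = 0.259 in limma). Without tumour 3 it was -0.79 and was called (adjusted p = 0.0283 in limma), and without tumour 2 it was -0.21 (adjusted p = 0.576 in limma).

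**Figure D2:**
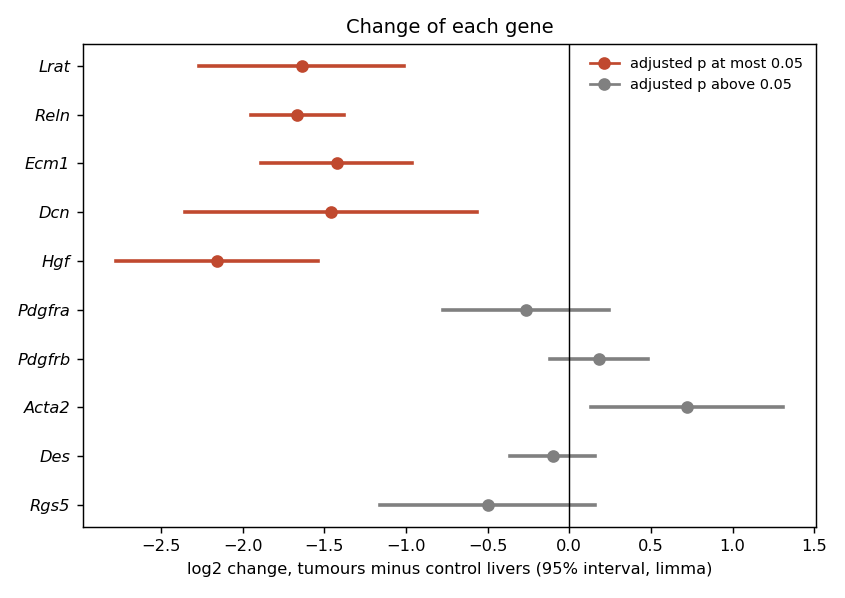
Log2 change of each of the 10 genes (points, tumours minus controls) with its 95% interval from limma (lines, not adjusted for the number of genes), red where the adjusted p was at most 0.05. The intervals of Hgf, Lrat, Reln, Ecm1 and Dcn lie below 0, and that of Acta2 lies above 0 although its adjusted p was 0.0673.

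The quiescence gene Lrat and the actin gene Acta2 were also compared within each array. The change of Lrat was lower than that of Acta2 by 2.36, and the values of Lrat minus Acta2 were 1.34, 2.56, 2.67 and 0.92 in the controls and -1.33, -0.77, 0.20 and -0.05 in the tumours. Every tumour was below every control. The two-sided exact permutation test gave p = 0.0286, the smallest that 4 against 4 arrays allow, and an adjusted p of 0.0857 over the 3 pairs. As single arrays were left out the difference ranged from -2.68 to -2.08. Without tumour 1 it was -2.08, with p = 0.0571 and adjusted p = 0.171 in the same exact permutation test. The adjusted p was 0.0429 without control liver 4 or tumour 2, where the p of this pair was still 0.0286 and the adjusted value fell because another pair also reached 0.0286. With Acta2 at low signal in 3 controls, the size of the difference is a limit.

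The tumours differed among themselves in these genes. Tumour 3 had the highest value of the 4 tumours for 6 of the 10 genes, Lrat, Dcn, Pdgfra, Pdgfrb, Hgf and Rgs5, and the lowest for Acta2. Tumour 1 had the lowest value for 6, Reln, Dcn, Des, Pdgfra, Hgf and Ecm1, and the highest for Acta2. The mean over the 10 genes was 6.54 in tumour 1, 6.72 in tumour 2, 7.25 in tumour 3 and 6.82 in tumour 4, against 7.49 to 7.80 in the controls. For Dcn the distance from the control mean ranged from -2.43 in tumour 1 to -0.13 in tumour 3, whereas for Reln it was -1.77 to -1.54. The tumour values of Reln were within the low signal range, which can narrow their spread, so the 2 spreads cannot be compared. Tumour 3 also had the highest mean of the 4 tumours over 22 other stellate cell markers (6.61, against 6.32 to 6.47) and over 9 sinusoidal endothelial markers (6.97, against 6.57 to 6.84). Of the fallen genes, Lrat, Reln, Ecm1, Hgf and Dcn were all called without tumour 3.

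**Figure D3:**
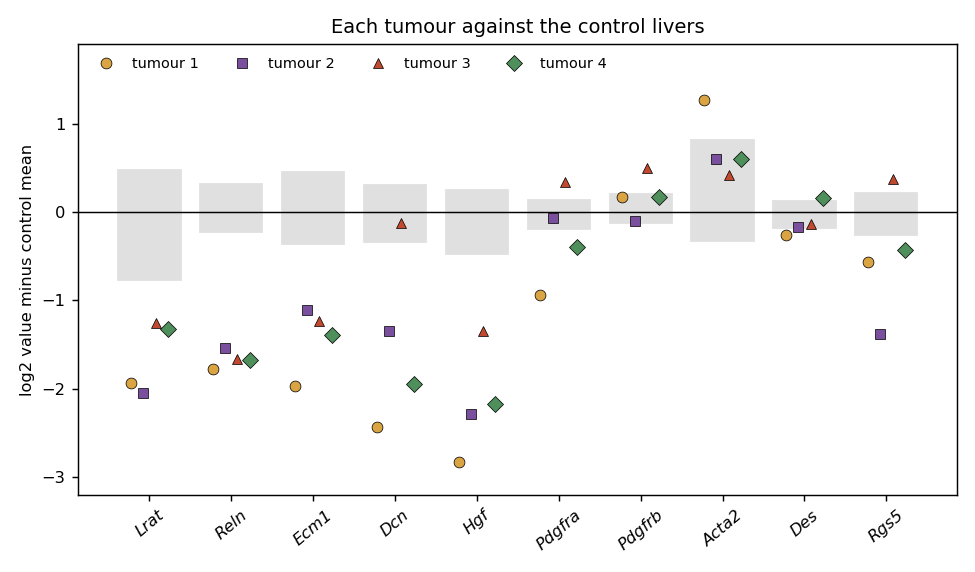
Log2 value of each tumour minus the mean of the 4 controls, for each of the 10 genes, with 1 symbol per tumour. Grey boxes give the range of the 4 controls. Tumour 3 lies highest for 6 genes and within the controls' range for Dcn. All 4 tumours lie between -1.77 and -1.54 for Reln, where their values were within the low signal range.

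Other markers of stellate cells were lower more often than higher. Of 22 measured, 8 were called lower and 1 higher, where 12.7% and 16.2% of all genes were, with a median of -0.25 against -0.04 over all genes. The metalloreductase gene Steap4 read 9.06 to 10.91 in the controls and 5.70 to 7.15 in the tumours (change -3.197, SE 0.41). All 10 hepatocyte markers were called lower as well, and which cells the Steap4 RNA came from was not tested. Bmp5, a growth factor of the BMP family, changed by -1.999 (SE 0.27), and the collectin gene Colec10 by -1.22 (SE 0.13), with every tumour below every control for both. The tumour mean of Colec10 (6.24) was within the low signal range, so its change is a limit. The exception was Vim, the intermediate filament vimentin of mesenchymal and many other cells, which rose from 7.66 to 8.14 in the controls to between 8.95 and 9.31 in the tumours (change 1.13, SE 0.13). In limma these 4 genes had an adjusted p from 4.5e-05 to 0.000234.

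Of 18 genes measured in retinoid storage and signalling, around Lrat, 9 were called lower, 1 was called higher and 8 were not called, with a median of -0.38. With all 10 hepatocyte markers also called lower, the cell type behind the counts of this list was not tested. Of all genes 12.7% were called lower and 16.2% higher. Aldh1a1, a retinaldehyde dehydrogenase abundant in hepatocytes, showed the largest change of the list, from 11.73 ± 0.32 to 8.06 ± 0.56 (SD, n = 4 and 4; change -3.68, SE 0.26). Cyp26a1, which degrades retinoic acid, changed by -1.13 (SE 0.21), and Rarb, a retinoic acid receptor gene that is itself induced by retinoic acid, by -0.96 (SE 0.18). The tumour means of Cyp26a1 (5.75) and Rarb (5.47) were within the low signal range. Crabp2, a cellular carrier of retinoic acid, rose by 0.81 (SE 0.19), from a control mean (5.99) within that range. These 3 changes are limits. In limma these 4 genes had an adjusted p from 2.7e-06 to 0.00859.

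Of 9 other genes of the HGF pathway, 2 were called lower, 1 was called higher and 6 were not called, beside 12.7% lower and 16.2% higher over all genes. The 2 lower genes were an activator and the receptor, and the uncalled ones included the protease genes Hpn (-0.49), St14 (0.02) and Plat (-0.05). Hgfac, the protease that activates the HGF precursor, read 7.34 to 8.04 in the controls and 6.501 to 6.92 in the tumours (change -0.80, SE 0.16, adjusted p = 0.0035 in limma). Met changed by -0.52 (SE 0.14, adjusted p = 0.0188 in limma), with every tumour below every control, a call that was just lost without tumour 2 (adjusted p = 0.0508 in limma). Plau, urokinase, which can also activate HGF, rose by 0.43 (SE 0.11, adjusted p = 0.0140 in limma), with both group means within the low signal range.

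None of the 4 PDGF ligand genes and none of the 3 genes of reelin's receptors and adaptor was called by the adjusted p in limma. At an unadjusted p under 0.05, 1 and 2 of them were lower. Pdgfc showed the largest change of the ligands, -0.43 (SE 0.18, adjusted p = 0.110 in limma), and was called without control liver 3 (-0.61, adjusted p = 0.00722 in limma). Vldlr, a receptor for reelin and for lipoproteins, changed by -1.18 (SE 0.49, adjusted p = 0.104 in limma), with controls from 6.30 in control liver 1 to 9.08 in control liver 3. Without control liver 1 its change was -1.61 (adjusted p = 0.0163 in limma). With control liver 3 left out it was -0.68 (adjusted p = 0.194 in limma). Dab1, the adaptor, was called with array weights (-0.33, adjusted p = 0.0325 in limma).

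Of 7 relatives of Dcn in the proteoglycan family, 3 were called higher and 2 lower, where 16.2% and 12.7% of all genes were. Aspn, asporin, read 4.82 to 5.04 in the controls and 7.19 to 7.999 in the tumours, a rise of 2.79 (SE 0.17, adjusted p = 8.9e-07 in limma). Omd, osteomodulin, rose by 1.48 (SE 0.27, adjusted p = 0.00179 in limma) and Ogn, osteoglycin, by 0.88 (SE 0.18, adjusted p = 0.0034 in limma). The control means of Aspn, Omd and Ogn were within the low signal range, so these rises are limits. Prelp, which binds collagen and basement membrane, changed by -1.10 (SE 0.21, adjusted p = 0.00278 in limma). Lum, lumican, changed by -0.76 (SE 0.22, adjusted p = 0.0262 in limma) to a tumour mean within the low signal range, and its call was lost without control liver 1 (adjusted p = 0.0613), tumour 1 (0.0779) or tumour 4 (0.0709).

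Contractile and myofibroblast genes beside Acta2 showed 5 of 16 called higher and none lower, also at an unadjusted p under 0.05. Of all genes 16.2% were called higher and 12.7% lower. The median was 0.12. Lox, lysyl oxidase, which crosslinks collagen, rose by 1.14 (SE 0.13), Tpm1, a tropomyosin, by 0.60 (SE 0.10), and Postn, periostin, by 0.84 (SE 0.26). The adjusted p was 6.8e-05, 0.00101 and 0.0337 in limma. The control means of Lox and Postn were within the low signal range, so both rises are limits. Postn was not called without control liver 1, control liver 3, control liver 4, tumour 1 or tumour 4, where limma's adjusted p ranged from 0.0521 to 0.0908. The count of 5 fell to 2 without control liver 3, and to 3 without control liver 1, control liver 4, tumour 1 or tumour 4, and with the replicate number as a block it was 2. Tpm2, another tropomyosin, rose by 0.39 (SE 0.10, adjusted p = 0.0172 in limma) from a control mean (6.08) within the low signal range. The collagen gene Col1a2 rose by 0.30 (SE 0.10, adjusted p = 0.0414 in limma). Smooth muscle genes such as Tagln (change 0.10), Myh11 (-0.08) and Cnn1 (0.04), and the collagen gene Col1a1 (-0.05), were not called. The control mean of Tagln (6.22) and both group means of Cnn1 (5.75 and 5.79) were within the low signal range, so their changes may be understated.

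Of 20 genes of TGF-beta signalling, 1 was called higher and 2 lower, with a median of 0.06. Over all genes 16.2% were called higher and 12.7% lower, shares that also belong beside the pericyte and portal fibroblast counts below. Smad4, the shared mediator, rose by 0.44 (SE 0.09, adjusted p = 0.00501 in limma). The co-receptor genes Eng (-0.52, SE 0.17) and Tgfbr3 (-0.38, SE 0.12) had an adjusted p of 0.0402 and 0.0341 in limma, and neither was called without control liver 3, control liver 4, tumour 1 or tumour 2; Eng was also lost without tumour 4 and Tgfbr3 without control liver 1. The ligand genes Tgfb1 (-0.10), Tgfb2 (0.10) and Tgfb3 (0.24) were not called. Among 9 pericyte and mural cell markers none was called higher, 1 was higher at an unadjusted p under 0.05, and 1 was called lower, Cald1, caldesmon (-0.46, SE 0.12, adjusted p = 0.0141 in limma). Under some alternatives further genes of these lists were called. The TGF-beta receptor gene Tgfbr2 was called higher without tumour 4 (0.39) and with array weights (0.40). Smad7, of the same list, changed by -0.44 (SE 0.15, adjusted p = 0.0525 in limma), to a tumour mean within the low signal range. It was called lower in 5 alternatives, with adjusted p from 0.0244 to 0.0476 in limma. These were without control liver 1, without the dimmest genes, with array weights, with a robust variance and with the replicate block. The pericyte marker Mcam was called higher in 6 alternatives, with adjusted p from 0.0302 to 0.0480 in limma: without control liver 2, control liver 3 or tumour 2, with array medians subtracted, without the dimmest genes and with array weights. Abcc9, a channel subunit of pericytes, was called lower without tumour 3 (-0.498, adjusted p = 0.0219 in limma). Among 12 portal fibroblast and mesothelial markers Cd34, also a marker of endothelium, rose by 1.42 (SE 0.18, adjusted p = 0.000137 in limma), a limit because its control mean (5.71) was within the low signal range. Gas6, a ligand of TAM receptors, was lower (change -0.999, SE 0.27, adjusted p = 0.0175 in limma), but not past the threshold when tumour 4 was left out (0.0517).

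**Figure D4:**
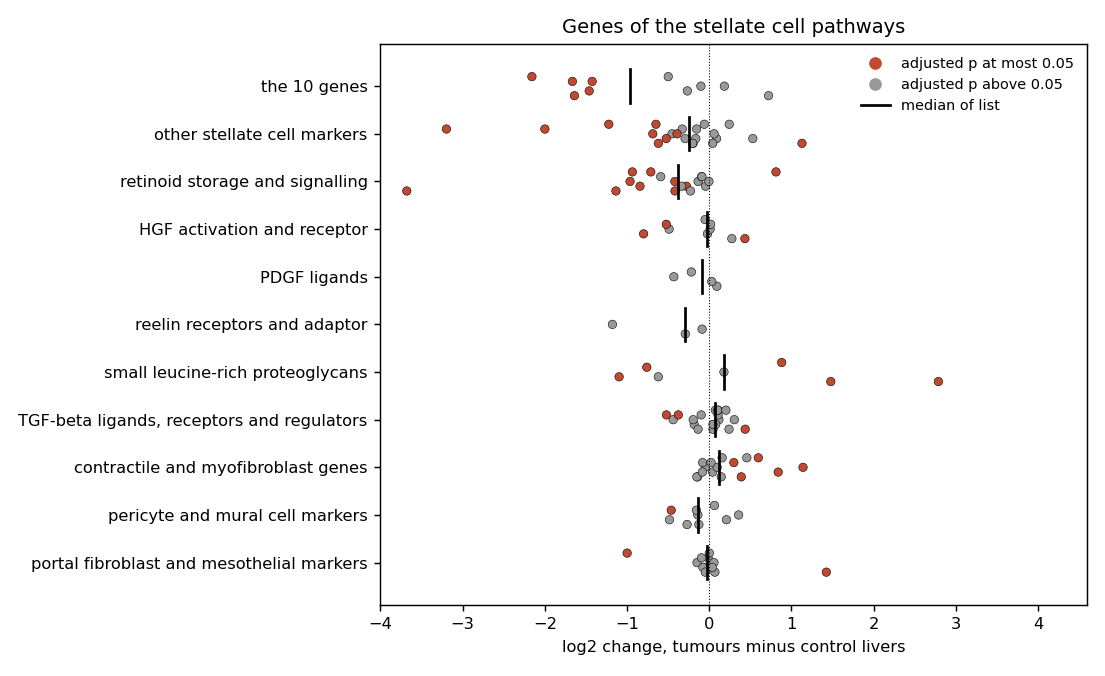
Log2 change (x axis, tumours minus controls) of each measured gene in 11 lists, 1 point per gene, red where the adjusted p was at most 0.05. Vertical black bars give the median of each list, -0.96 for the 10 genes and -0.25 for the 22 other stellate cell markers, and vertical position within a list has no meaning.

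Markers of other cells of the liver moved in the same arrays. Beside the counts that follow, 12.7% of all genes were called lower and 16.2% higher. All 10 hepatocyte markers were called lower, and their mean level was 11.82 to 12.08 in the controls and 9.85 to 10.15 in the tumours. Of 9 sinusoidal endothelial markers 6 were called lower and none higher, none also at an unadjusted p under 0.05, with a mean of 7.54 to 8.13 in the controls and 6.57 to 6.97 in the tumours. General endothelial markers had 3 of 8 lower and 1 higher, and their mean overlapped between groups (6.58 to 7.24 and 6.75 to 7.05). Kupffer cell markers had 3 of 6 lower and 1 higher, with means of 7.61 to 8.21 and 6.94 to 7.47. Of 6 macrophage and monocyte markers 2 were higher and none lower, none also at an unadjusted p under 0.05, with means of 6.53 to 7.41 and 7.43 to 7.97. Of 5 bile duct markers 1 was higher and 1 lower, and no call was made by limma, at either p, among 8 lymphocyte and 3 red blood cell genes. In each group, 6 of the 8 lymphocyte and 3 of the 5 bile duct markers had means within the low signal range. A change in them may be missed. The higher or lower counts of the endothelial, Kupffer and bile duct lists changed by over 1.5 times when single arrays were left out, as follows. General endothelial markers called lower were 1 without control liver 2, 3 or 4 or tumour 1 or 2, and none was called higher without control liver 2 or 4 or tumour 2, 3 or 4. Kupffer markers called higher were 0 without control liver 2 or 4 or tumour 1 or 3, and 2 without control liver 3. Bile duct markers called lower were 0 without any 1 array except tumour 4. The hepatocyte list had 7 to 10 lower and the sinusoidal list 5 to 7. The part of these cell types in the changes of the 10 genes was not tested.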

How the data were processed

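Per the labels, biotin-labelled RNA of each sample was hybridised to 1 array. The deposited table holds log2 values for 34760 probe sets, which the authors made with RMA in R 3.0.2, per the submitters' processing notes. Its settings are not given in the sources used here. RMA normalises between arrays and draws low signals together, so folds of dim genes are understated. The values were used as deposited, and array medians lay between 6.33 and 6.44.

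Gene names came from the platform's annotation table. Those with 1 gene symbol (21640) were kept, those with several (1321) or none (11799) were not, and 21553 were matched to RefSeq by gene identifier. The brightest probe set of a gene represented it. Groups were compared with limma 3.58.1 in R 4.3.3 (lmFit and eBayes, group as the only term), which was checked on simulated data. Tables and plots used Python 3.11.15, pandas 2.3.3 and matplotlib 3.10.9.

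The members, the 18 other gene lists and the tests were chosen with earlier results of these data known. The lists hold 184 entries, of which 175 were measured, 1 had only a probe set of several genes and 8 were not found by name. Named genes were the 10 members and, from each pathway list, up to 3 called genes per direction, or the largest change where none was called. The genes Tagln, Myh11, Cnn1, Tpm2, Col1a1, Col1a2, Tgfb1, Tgfb2, Tgfb3, Tgfbr2, Smad7, Mcam, Abcc9, Dab1, Hpn, St14 and Plat were named after their values were seen. Motifs were also chosen after the values were seen.

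Alternatives were leaving out each array, quantile normalisation, subtraction of array medians, a replicate block, array weights, a robust variance that follows intensity, averaging all probe sets of a gene, and a filter that dropped the dimmest 33.3%. Deviations of same-numbered samples from their group means correlated at -0.06, 0.00, 0.05 and -0.32 over genes, so the numbers were not taken as pairs.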

Additional observations from a re-analysis of the deposited data

Results flagged for a closer look

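In control liver 4, Acta2 read 7.001, far from the other 3 controls, which lay between 5.87 and 5.95; the gap to the nearest was 0.92 of the range of the group. The difference Acta2 minus Des was 1.09 in the same control liver, also far from the others, at -0.31 to -0.13, with a gap of 0.87 of the range. These 2 were the only ones past the 95% limit of Dixon's test among 26 groups of values examined, where chance gives about 1 in 20, and they share the Acta2 value. Des was at or under the low signal percentile on every array, so the second adds nothing to the first. In control liver 4 the mean over 16 contractile and myofibroblast genes was 6.30, against 6.14 to 6.22 in the other controls.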

How the results depend on the processing

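The calls of Lrat, Reln, Hgf and Ecm1 held under all 15 alternatives, with changes between -1.89 and -1.48 for Lrat, -1.74 and -1.56 for Reln, -2.43 and -1.94 for Hgf and -1.54 and -1.24 for Ecm1. Averaging probe sets could not move the change of these genes, because each had 1 probe set. The dim gene filter, the robust variance and the replicate block also left the changes as they were and altered only the p. The number of the 10 genes called lower was 4 to 6 as single arrays were left out, 4 with array weights and 5 under the other alternatives, and the number called higher was 0 or 1, the 1 being Acta2 without control liver 4. Des, Pdgfra and Pdgfrb were called under none, with adjusted p in limma from 0.117 to 0.910. Leaving out single arrays gave Pdgfra minus Pdgfrb values between -0.61 and -0.23, Acta2 minus Des between 0.59 and 1.15 (Des itself at low signal on every array), and Lrat minus Acta2 between -2.68 and -2.08. With the replicate number as a block, 5 genes were called lower, and exact sign flips by replicate number gave p = 0.250, 0.250 and 0.125 for these gene pairs, where the smallest possible is 0.125. Contractile genes called higher were 2 with the block, against 5, and lower proteoglycans were 1, against 2. Lum (adjusted p = 0.0672 in limma) and Postn (0.0571) were lost under it, and Vldlr (0.0400) and Smad7 (0.0476) were called. Eng was lost with array medians subtracted (0.0598), Tgfbr3 with array weights (0.0542) and Postn with array weights (0.0502). Arrays give no counts, so 4 arrays per group and the low signal range limit the precision.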
